A study of Homo sapiens with 8 samples.

Results

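CDK1, its B-type cyclins and the enzymes that switch this kinase on at the entry into mitosis were followed in HCT-116 cells, a human colorectal cancer line. The genes were CDK1, CCNB1, CCNB2, WEE1, PKMYT1, CDC25B, CDC25C, PLK1, CCNF and BORA, and they were found by the gene name that the scanner files give to each probe. All 10 were on the array, of 36337 gene names in all (an accession stands as the name where no symbol is given). They were represented by 13 of 50599 probes, and all 13 rose well above background on each of the 8 arrays and entered the tests. CDK1, CCNB1 and PLK1 had a pair of probes each, and the probe with the higher mean over all arrays, called the brightest, stands for a gene wherever 1 value per gene is given.

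There were 4 groups with 2 arrays each. Parental HCT-116 cells (WT) and CDK2 knockout cells (CDK2-/-) were growing exponentially without inhibitor. WT+NU6102 was the parental line after 24 h in 20 µM NU6102, an inhibitor of CDK1 and CDK2, and R50 was a resistant HCT-116 line kept in 50 µM NU6102. R50 cells were kept in that dose from the start of their selection, and whether R50 or CDK2-/- is 1 clone is not given in the sources used here. The authors distinguish early from late R50 cells by their growth under NU6102, and the labels do not say which were arrayed. All groups shared the HCT-116 background, and dose and duration of NU6102 differed between WT+NU6102 and R50. The label of a replicate does not say that it came from a separate culture, so that a p-value measures only the spread between these arrays, which may be technical.

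The kinase CDK1 is inactive without a cyclin partner, and cyclin B1 and cyclin B2, the products of CCNB1 and CCNB2, are its partners in mitosis. WEE1 and PKMYT1 hold the complex inactive by phosphorylating CDK1, and the phosphatases CDC25B and CDC25C remove these phosphates. PLK1, activated by Aurora A with the help of BORA, promotes the switch by acting on WEE1 and CDC25C. CCNF is the cyclin-like substrate receptor of an SCF ubiquitin ligase and is most abundant in G2.

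The probes of CDK1, CCNB1 and PLK1 are shown because each of these genes had a pair, and for CCNB1 the direction of change turned on which was read. The brightest probes of all 3 genes crossed an intron on hg19, the build of the WT and WT+NU6102 scanner files. That of CDK1 lay at chr10:62552004-62553650, a span 1587 bases longer than the probe. That of CCNB1 lay at chr5:68471363-68473123, a span 1701 bases longer, and that of PLK1 at chr16:23700970-23701212, a span 183 bases longer. Each second probe matched 1 unbroken stretch. The second CDK1 probe lay at chr10:62546632-62546691, 5312 bases upstream, and shared 0 RefSeq transcripts with the first according to the files. The second CCNB1 probe lay at chr5:68473872-68473931, 748 bases downstream, and was assigned to the same RefSeq transcript. The second PLK1 probe lay at chr16:23692251-23692310 and shared its transcript too. All lie on the plus strand. The 60-base probes, or their first 30 bases for the second probes of CDK1 and CCNB1, read as follows.
CDK1 brightest: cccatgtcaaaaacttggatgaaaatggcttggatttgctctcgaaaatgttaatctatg
CDK1 second: ttggactttctgcttttatgtcttgcttaa
CCNB1 brightest: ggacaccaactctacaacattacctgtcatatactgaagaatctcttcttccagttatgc
CCNB1 second: gaatccctagtccccctgttttctgtttct
PLK1 brightest: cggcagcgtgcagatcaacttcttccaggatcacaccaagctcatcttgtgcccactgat
PLK1 second: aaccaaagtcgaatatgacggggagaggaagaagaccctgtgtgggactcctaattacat

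Promoters of these genes are known for 2 elements of G2/M transcription, the CCAAT box and the cell cycle genes homology region, CHR. RefSeq promoters on GRCh38.p14, from 250 bases before to 50 after each start, were searched on both strands. The search was for the CCAAT letters and for TTTGAA or TTCGAA, 2 forms of the CHR. The table held 8 of the 10 genes, the exceptions being WEE1 and PKMYT1. CHR letters stood in at least 1 promoter of 7 of these 8 genes, against 19.5% of all genes in the table, and CCAAT letters in 8 of 8, against 39.7%. By promoter, the shares in the whole table were 16.4% and 34.6%. CDC25B and CDC25C had 4 starts each in the table and CDK1 had 2, which gives such genes more chances to hold the letters. Not all promoters of CDC25B and CDC25C held CHR letters. CCNB1 was the gene without CHR letters, which says only that these letters are not in this window. Stretches before the start are printed with both motifs in capitals, to 96 bases for genes with 1 start in the table and 30 bases for genes with several.
CDK1 (chr10:60778448-60778477, plus strand): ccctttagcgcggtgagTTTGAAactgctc
CCNB1 (chr5:69167024-69167119, plus strand): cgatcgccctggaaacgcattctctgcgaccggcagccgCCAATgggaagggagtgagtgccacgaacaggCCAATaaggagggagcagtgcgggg
CCNB2 (chr15:59105047-59105142, plus strand): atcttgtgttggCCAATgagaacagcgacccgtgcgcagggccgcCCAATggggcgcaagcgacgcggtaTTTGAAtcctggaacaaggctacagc
CDC25C (chr5:138331822-138331851, minus strand): actgggctggcggaaggTTTGAAtggtcaa
PLK1 (chr16:23678790-23678885, plus strand): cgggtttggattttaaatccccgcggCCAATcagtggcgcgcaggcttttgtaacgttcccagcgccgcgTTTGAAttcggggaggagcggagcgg
The CHR letters began 29 bases before the start in CCNB2 and PLK1. They began 30 bases before it in CDC25C and 13 in CDK1, counted there from 1 of several starts. CDK1 and CDC25B, which both carried these letters in at least 1 promoter, differed in the direction of their change in WT+NU6102. Whether the letters bear on any change in signal was not tested.

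Signal was taken as log2 of the background-subtracted intensity less the 75th percentile of the array, and values are on this scale, on which a difference of 1 is a doubling. Probes differ in how strongly they bind, and no level was compared between probes, apart from a coarse reading of cell type markers. Limma fitted the 4 groups together, and a gene or probe was called when its p, adjusted by Benjamini-Hochberg over all 28677 tested probes, was under 0.05. The WT and WT+NU6102 arrays were on 1 slide and the CDK2-/- and R50 arrays on another, so that slide and group cannot be told apart in any comparison between these pairs. RNA came from whole cultures, in which fewer cells in G2 or mitosis and less RNA per cell cannot be told apart. CDK2 signal was between -0.78 and -0.77 in WT, between -0.46 and -0.43 in WT+NU6102, between -1.58 and -1.53 in CDK2-/- and between -1.11 and -1.10 in R50, and where its probe lies relative to the deletion is not given in the sources used here. Epithelial markers were well above background on all 8 arrays for 5 of 5 genes. The other lists were 3 leukocyte, 3 endothelial and 4 fibroblast genes, of which 2, 2 and 1 were. These were PTPRC, CD14, VWF, CDH5 and COL1A1, and their brightest probes lay between -3.69 and -1.63. Those of the epithelial genes lay between 1.09 and 8.10. The fibroblast genes COL1A2 and PDGFRB had a probe but were not well above background on any array.

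After 24 h of NU6102, the genes of the switch separated into those that rose and those that fell. Of 10 genes, 4 were called higher, namely CDK1, PKMYT1, CCNF and PLK1, where 24.2% of all 21595 tested genes were called higher. CDC25B, CDC25C, WEE1, BORA and CCNB2 were called lower, 5 of 10 against 21.1% of all genes. Differences ran from -0.81 for CDC25B to 0.80 for CDK1, with a median of -0.03 against 0.04 over all genes, and 0 of 10 reached a doubling or a halving. CDK1, PKMYT1, CDC25B, CDC25C and WEE1 kept their call whichever array was left out. With either array of WT+NU6102 left out the counts were 7 and 5 of 10, the latter without replicate 2.

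CDK2-/- and R50 cells showed fewer called genes. In CDK2-/- cells 1 of 10 genes, CDC25B, was called higher against 16.3% of all genes, and CCNB1, CCNB2 and BORA were called lower, 3 of 10 against 15.0%. By its second probe CCNB1 was instead called higher in these cells, by 0.53 (limma adjusted p = 0.00292). In R50 cells CDC25B and CDC25C were called higher, 2 of 10 against 10.3%, and CDK1, CCNB1, WEE1 and BORA lower, 4 of 10 against 12.9%. The counts in R50 were less firm, since leaving out any 1 array reduced them to 2 or 3 of 10, and quantile normalization gave 2 higher and 1 lower. In CDK2-/- cells 1 to 4 genes were called without 1 array, with 1 without CDK2-/- replicate 2 and 2 without WT replicate 2.

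**Figure D1:**
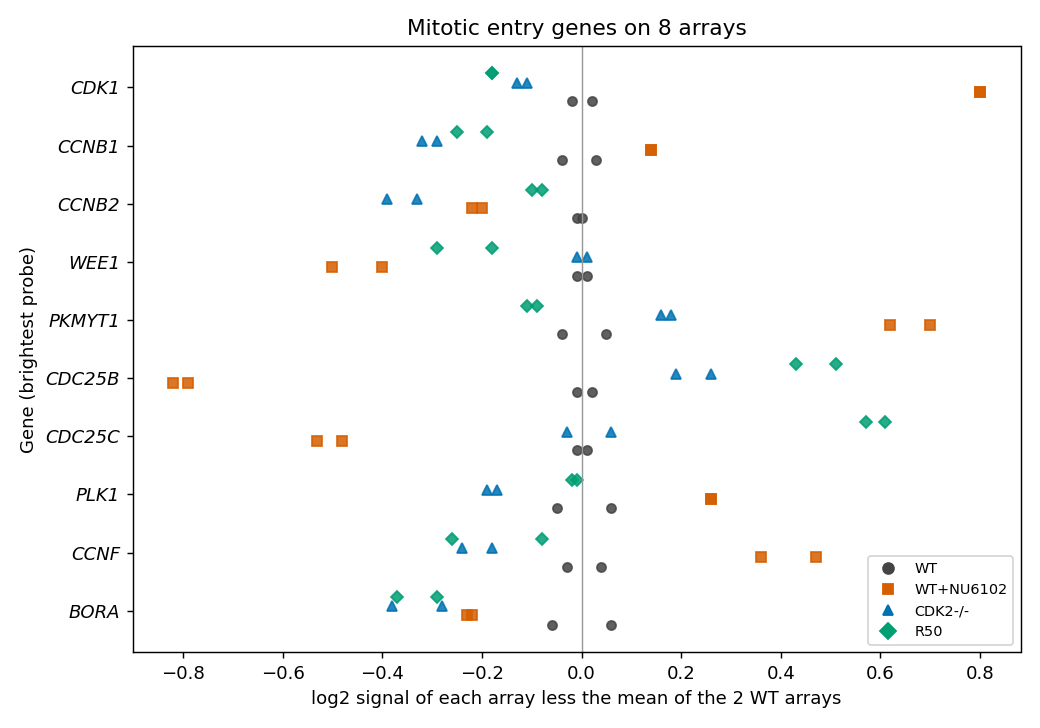
Log2 signal of the brightest probe of each of the 10 genes on every array, less the mean of the 2 WT arrays (x axis, log2; 1 symbol per array, 4 groups). WT+NU6102 arrays lie farthest to the right for CDK1 and PKMYT1 and farthest to the left for CDC25B, CDC25C and WEE1, while R50 arrays lie to the right for CDC25B and CDC25C.

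Comparisons that leave WT out gave the difference between the resistant line and each other group directly. Against WT+NU6102, R50 cells had 3 of 10 genes called higher (CDC25B, CDC25C and WEE1; 22.7% of all genes) and 5 lower (CDK1, PKMYT1, CCNF, CCNB1 and PLK1; 28.6%). Under quantile normalization this split was 4 and 4. By its second probe CCNB1 was instead called higher in this comparison, by 0.64 (limma adjusted p = 5.35e-04). Against CDK2-/-, on the same slide, 3 of 10 were higher (CDC25C, CCNB2 and CDC25B; 15.3%) and 2 lower (PKMYT1 and WEE1; 19.6%), and the split was 4 and 1 under quantile normalization. Without CDK2-/- replicate 1, CDK2-/- replicate 2 or R50 replicate 2, only 2, 1 and 2 of these 5 calls against CDK2-/- stood. The arrays of this slide fitted alone gave 3.

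The kinase itself was read by a pair of probes. CDK1 signal from the brightest probe was 3.20 and 3.24 in WT, 4.02 and 4.02 in WT+NU6102, 3.11 and 3.09 in CDK2-/- and 3.04 and 3.04 in R50. Both WT+NU6102 arrays stood above every other array, and the other 3 groups lay within a narrow band without overlapping. CDK1 rose by 0.80 ± 0.04 (SE, 1.74-fold) in WT+NU6102 (limma adjusted p = 1.87e-04). In CDK2-/- cells the difference was -0.12 with a 95% interval from -0.23 to -0.01 (limma adjusted p = 0.0992). It passed the threshold with normexp correction (0.0468) and with a trended prior (0.0314). CDK1 fell by 0.17 in R50 (limma adjusted p = 0.0426), a call lost without any 1 of the 8 arrays (limma adjusted p from 0.0789 to 0.164) with quantile normalization (0.121) and with a replicate block (0.0667). Against WT+NU6102 the difference in R50 was -0.97 ± 0.04 (SE, limma adjusted p = 5.31e-05).

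The second CDK1 probe, assigned to other transcripts of the gene, gave a less precise reading. Its signal was -3.07 and -2.81 in WT, -2.77 and -3.04 in WT+NU6102, -2.82 and -2.00 in CDK2-/- and -3.01 and -2.90 in R50. All groups overlapped except R50 and CDK2-/-, and CDK2-/- replicate 2 stood apart from the other 7 arrays. It was spotted once per array, while the brightest probe was averaged over 10 spots. Its difference between WT+NU6102 and WT was 0.03 with an interval from -0.65 to 0.72 (limma adjusted p = 0.933), which includes no change and nearly the whole rise of the brightest probe. In CDK2-/- it was 0.53, with an interval from -0.16 to 1.21 (limma adjusted p = 0.205), and without CDK2-/- replicate 1 it was 0.94 (limma adjusted p = 0.0271).

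Cyclin B1 showed the clearest disagreement between probes. CCNB1 signal from the brightest probe was 4.66 and 4.73 in WT, 4.84 and 4.84 in WT+NU6102, 4.41 and 4.38 in CDK2-/- and 4.45 and 4.51 in R50. WT+NU6102 was highest by this probe, and CDK2-/- was lowest. The difference from WT was 0.15 ± 0.05 (SE) in WT+NU6102 (limma adjusted p = 0.0593), and it was 0.00 with quantile normalization (0.953). It passed the threshold when only probes well above background on all 8 arrays were kept (0.0482), with the authors' processed values (0.0432) and with a trended prior (0.0130). CCNB1 fell by 0.30 in CDK2-/- (limma adjusted p = 0.00812; 0.0566 without CDK2-/- replicate 2) and by 0.22 in R50 (0.0308; from 0.0612 to 0.133 without any 1 of the 8 arrays and 0.0769 with quantile normalization).

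By the second probe, spotted once per array where the brightest was averaged over 10 spots, the order was turned. CCNB1 signal there was 3.22 and 3.35 in WT, 2.52 and 2.48 in WT+NU6102, 3.82 and 3.81 in CDK2-/- and 3.18 and 3.10 in R50. WT+NU6102 was now the lowest group and CDK2-/- the highest, with no overlap between any groups. This reading fell by 0.79 ± 0.06 (SE) in WT+NU6102 (limma adjusted p = 4.69e-04) and rose by 0.53 ± 0.06 in CDK2-/- (0.00292). In R50 the difference was -0.15, with an interval from -0.30 to 0.01 (limma adjusted p = 0.161). R50 exceeded WT+NU6102 by 0.64 by this probe (limma adjusted p = 5.35e-04) and lay below it, at -0.37, by the brightest probe (0.00178; -0.16 and 0.0392 with quantile normalization).

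The log2 difference of the probes of a gene was fitted over 9732 pairs of tested probes of the same gene. That the CDK1 and CCNB1 probes disagree was known from these data beforehand. Their p-values are therefore no independent support for the disagreement. For CCNB1 the brightest probe gained 0.93 ± 0.08 (SE) on the second in WT+NU6102 (limma adjusted p = 0.00211), and 17.6% of all pairs were called there. In CDK2-/- it lost ground, with a change of -0.83 (limma adjusted p = 0.00422), where 12.7% of pairs were called. In R50 the change was -0.07, with an interval from -0.27 to 0.12 (limma adjusted p = 0.683), where 3.45% were called. A pair difference larger in size than that of CCNB1 was seen in 9.58% of pairs for WT+NU6102 and 8.85% for CDK2-/-. Both CCNB1 calls were kept under all alternatives run for pairs.

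For CDK1 the pair difference was 0.77 ± 0.28 (SE) in WT+NU6102, with a 95% interval from 0.08 to 1.45 that excludes 0 but an adjusted p over the threshold (limma adjusted p = 0.121). In CDK2-/- it was -0.65, with an interval from -1.33 to 0.04 (limma adjusted p = 0.206). These values depended on the CDK2-/- arrays, which set much of the spread: the WT+NU6102 difference was called without CDK2-/- replicate 1 (limma adjusted p = 0.0327) or 2 (0.0387), and the CDK2-/- difference, then -1.06, without replicate 1 (0.0400). Normexp background correction also brought the WT+NU6102 difference past the threshold (0.0109). The probes of PLK1 differed by 0.12 in WT+NU6102 (interval -0.16 to 0.39), by -0.12 in CDK2-/- (-0.40 to 0.15) and by -0.02 in R50 (-0.30 to 0.25).

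**Figure D2:**
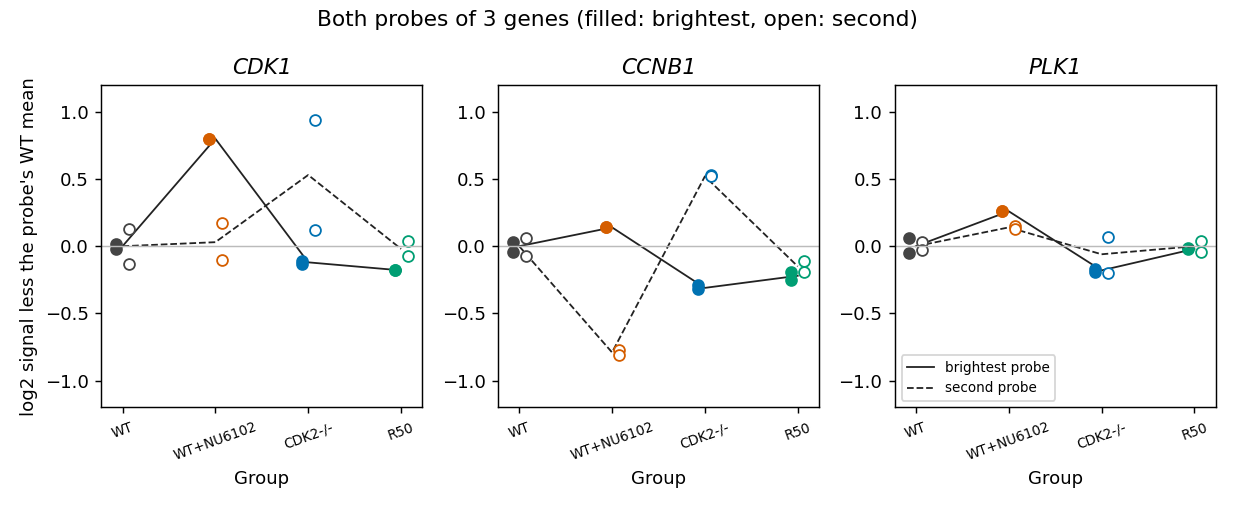
Log2 signal of both probes of CDK1, CCNB1 and PLK1 on each array less the probe's own WT mean (y axis), by group (x axis); filled circles and solid lines are the brightest probe, open circles and dashed lines the second, and lines join group means. The CCNB1 probes move apart in WT+NU6102 (-0.79 for the second) and CDK2-/- (0.53 for the second), and the open circles of CDK1 are widely spread in CDK2-/-.

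CCNB2 signal was 5.01 and 5.02 in WT, 4.80 and 4.82 in WT+NU6102, 4.69 and 4.63 in CDK2-/- and 4.92 and 4.94 in R50. WT stood highest, and every other group lay below it without overlap. CCNB2 fell by 0.36 in CDK2-/- (limma adjusted p = 0.00365), the 1 gene call against WT in these cells that stood whichever array was left out. In WT+NU6102 it fell by 0.21 (limma adjusted p = 0.0153), a call lost without any 1 of the WT and WT+NU6102 arrays (from 0.0579 to 0.0712), and the difference was -0.35 with quantile normalization (0.00245). In R50 it differed by -0.08, with an interval from -0.20 to 0.03, and it lay 0.28 above CDK2-/- (limma adjusted p = 0.00769; 0.0541 without CDK2-/- replicate 2). Its excess of 0.12 over WT+NU6102 (limma adjusted p = 0.0717) became 0.33 with quantile normalization (0.00199).

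The inhibitory kinases of CDK1 moved in opposite directions under NU6102. WEE1, the nuclear one, had a signal of 2.06 and 2.04 in WT, 1.65 and 1.55 in WT+NU6102, 2.06 and 2.04 in CDK2-/- and 1.87 and 1.76 in R50. WT and CDK2-/- overlapped, and both stood above R50, which stood above WT+NU6102. WEE1 fell by 0.45 ± 0.06 (SE) in WT+NU6102 (limma adjusted p = 0.00251), and in CDK2-/- the difference was -0.01, with an interval from -0.16 to 0.15. Its fall in R50, by 0.24 (limma adjusted p = 0.0459), was lost without any 1 of the 8 arrays (from 0.0630 to 0.164) and with quantile normalization (0.0582). Its differences between R50 and the other groups were likewise unstable. That against CDK2-/-, -0.23, was lost without either WT array, either CDK2-/- array or R50 replicate 2 (from 0.0683 to 0.137), and that against WT+NU6102, 0.22, without either WT array, either CDK2-/- array, WT+NU6102 replicate 2 or R50 replicate 1 (from 0.0582 to 0.146). The latter was 0.36 with quantile normalization (limma adjusted p = 0.00465).

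PKMYT1, which encodes the membrane-bound kinase MYT1, had a signal of 5.22 and 5.31 in WT, 5.88 and 5.96 in WT+NU6102, 5.42 and 5.44 in CDK2-/- and 5.17 and 5.15 in R50. WT+NU6102 stood above all other arrays and R50 below them. PKMYT1 rose by 0.66 ± 0.06 (SE, 1.58-fold) in WT+NU6102 (limma adjusted p = 5.51e-04). The difference from WT was 0.17 in CDK2-/- (interval 0.03 to 0.31, limma adjusted p = 0.0713; 0.0339 with quantile normalization and 0.0158 with a trended prior). In R50 it was -0.10 (interval -0.24 to 0.04). R50 lay below WT+NU6102, at -0.76 (limma adjusted p = 2.03e-04), and below CDK2-/-, at -0.27 (0.0161), the latter lost without any 1 array of CDK2-/- or R50 (from 0.0597 to 0.0872).

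The activating phosphatases CDC25B and CDC25C fell under NU6102 and rose in the resistant line. CDC25B signal was 3.25 and 3.28 in WT, 2.44 and 2.47 in WT+NU6102, 3.45 and 3.52 in CDK2-/- and 3.69 and 3.77 in R50. The groups were fully separated, with R50 at the top and WT+NU6102 at the bottom. CDC25B fell by 0.81 ± 0.05 (SE) in WT+NU6102 (limma adjusted p = 2.93e-04) and rose by 0.47 ± 0.05 in R50 (0.00456). The difference between these groups was 1.28 ± 0.05, a 2.43-fold higher signal in R50 (limma adjusted p = 4.52e-05). CDC25B also rose by 0.22 in CDK2-/- (limma adjusted p = 0.0312), lost without any 1 array of WT, WT+NU6102 or CDK2-/- (from 0.0588 to 0.156). Its excess of 0.25 in R50 over CDK2-/- (limma adjusted p = 0.0177) was lost without either CDK2-/- array or R50 replicate 2 (from 0.0538 to 0.0919) and when the slide was fitted alone (0.0658).

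CDC25C signal was -0.86 and -0.84 in WT, -1.33 and -1.38 in WT+NU6102, -0.79 and -0.88 in CDK2-/- and -0.28 and -0.24 in R50. R50 was highest and WT+NU6102 lowest, and WT and CDK2-/- overlapped between them. CDC25C fell by 0.51 ± 0.05 (SE) in WT+NU6102 (limma adjusted p = 0.00107) and rose by 0.59 ± 0.05 (1.51-fold) in R50 (0.00221). In CDK2-/- the difference was 0.02, with an interval from -0.12 to 0.15. R50 exceeded CDK2-/- by 0.57 (limma adjusted p = 0.00109) and WT+NU6102 by 1.10, or 2.14-fold (6.53e-05). CDC25B and CDC25C were the only genes of the 10 with a difference of at least 1 in any of the 5 comparisons, both between R50 and WT+NU6102.

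Among the regulators around PLK1 the changes were small. PLK1 signal from the brightest probe was 2.08 and 2.19 in WT, 2.39 and 2.39 in WT+NU6102, 1.94 and 1.96 in CDK2-/- and 2.11 and 2.12 in R50. WT+NU6102 was highest and CDK2-/- lowest, with R50 inside the range of WT. PLK1 rose by 0.26 ± 0.05 (SE) in WT+NU6102 (limma adjusted p = 0.0112), a call lost without WT replicate 1 (0.0520) or WT+NU6102 replicate 2 (0.0561) and with quantile normalization (0.12, 0.0896). In CDK2-/- the difference was -0.18 (interval -0.32 to -0.05, limma adjusted p = 0.0509). It passed the threshold with normexp correction (0.0232), quantile normalization (0.0341), the authors' processed values (0.0396) and a trended prior (0.0114). It also passed when only probes well above background on all 8 arrays were kept (0.0385). R50 lay below WT+NU6102, at -0.28 (limma adjusted p = 0.00716; -0.11 and 0.116 with quantile normalization). The second PLK1 probe was 0.48 and 0.42 in WT, 0.60 and 0.58 in WT+NU6102, 0.25 and 0.52 in CDK2-/- and 0.41 and 0.49 in R50, and the 95% interval of its difference included 0 in all 5 comparisons.

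BORA signal was 1.14 and 1.26 in WT, 0.98 and 0.97 in WT+NU6102, 0.92 and 0.82 in CDK2-/- and 0.83 and 0.91 in R50. WT was above every other array, and CDK2-/- and R50 overlapped. BORA fell by 0.33 ± 0.07 (SE) in CDK2-/- (limma adjusted p = 0.0160) and by 0.33 in R50 (0.0224), and by 0.23 in WT+NU6102 (0.0364). The first was lost without WT replicate 2 or CDK2-/- replicate 2 (0.0767 and 0.0938), the second without any 1 array of WT or R50 (from 0.0524 to 0.101). The third was lost without WT replicate 2, either WT+NU6102 array, either CDK2-/- array or R50 replicate 1 (from 0.0505 to 0.158), with a replicate block (0.0570) and with the slide fitted alone (0.0605).

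CCNF signal was -1.09 and -1.16 in WT, -0.77 and -0.66 in WT+NU6102, -1.37 and -1.31 in CDK2-/- and -1.39 and -1.21 in R50. WT+NU6102 stood above the rest, and CDK2-/- and R50 overlapped below WT. CCNF rose by 0.41 ± 0.08 (SE, 1.33-fold) in WT+NU6102 (limma adjusted p = 0.00908; 0.0537 without WT replicate 2 and 0.0532 without WT+NU6102 replicate 2). Its differences from WT were -0.22 in CDK2-/- (interval -0.41 to -0.02) and -0.17 in R50 (-0.37 to 0.03). R50 lay below WT+NU6102, at -0.58 (limma adjusted p = 0.00183).

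**Figure D3:**
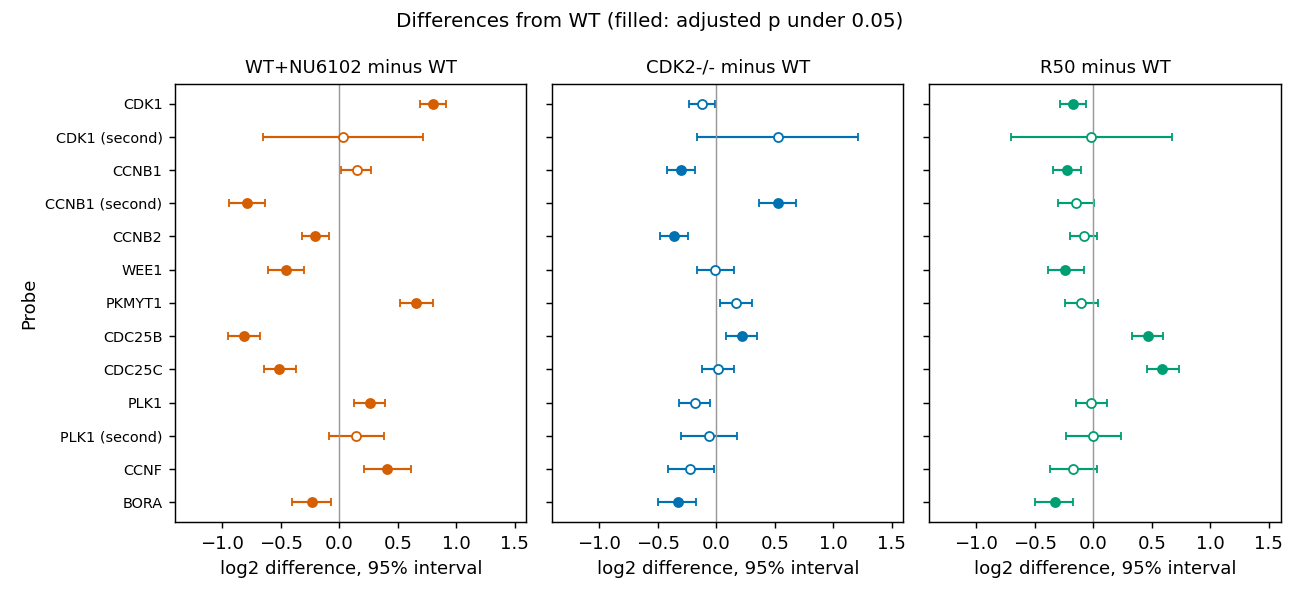
Log2 difference from WT (x axis) of all 13 probes with its 95% interval from limma, in WT+NU6102, CDK2-/- and R50; filled circles have an adjusted p under 0.05. CDC25B and CDC25C lie at -0.81 and -0.51 in WT+NU6102 and at 0.47 and 0.59 in R50, and the second CDK1 probe has the widest interval.

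A single F-test among the 4 groups, at an adjusted p under 0.001, passed 4 of the 10 genes (CDK1, CDC25B, CDC25C and PKMYT1), against 22.0% of all genes, and the second CCNB1 probe. These 5 of 13 probes became 0 to 2 when an array was left out, with 0 without any 1 array of WT+NU6102 or CDK2-/- (11 or 12 of 13 at an unadjusted limma p under 0.05) and 2 without any 1 array of WT or R50. Genes whose brightest probe followed the pattern of CDK1 most closely, among 4455 genes past the same test and measured on every array, were DNLZ (Pearson r = 0.999 over 8 arrays), VKORC1L1 and SBDSP1 (0.998 each). For CCNB1 they were HOXB9 (0.995), LOC100506860 (0.993) and NT5E (0.991) by the brightest probe and THSD4, AK130019 (0.997 each) and AKAP12 (0.996) by the second, with 0 names in common. The second CDK1 probe reached at most 0.758, with C16orf55, MARCKSL1 (0.751) and KCNH3 (0.745) nearest. With 4 groups and 8 arrays such correlations mainly describe the order of group means.

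The wider network around the switch was read from 59 further genes in 6 lists, all of which were tested. In WT+NU6102, 23 of 59 were called higher and 8 lower, with a median of 0.13 against 0.04 over all genes, of which 24.2% were called higher and 21.1% lower. This balance depended on the scaling, since quantile normalization gave 11 higher and 14 lower and a median of 0.01. In CDK2-/-, 10 were higher and 24 lower (median -0.13 against 0.02; 16.3% and 15.0% of all genes), and quantile normalization gave 10 and 23. In R50, 3 were higher and 20 lower (median -0.16 against -0.04; 10.3% and 12.9% of all genes), with 5 and 15 under quantile normalization and 3 and 28 under normexp correction. The counts of single lists that follow stand against the same shares of all genes, and the lists hold 5 to 17 genes each. Leaving out an array reduced the R50 counts to between 0 and 2 higher and between 2 and 12 lower, the fewest without WT replicate 2. In CDK2-/- it left 5 to 9 higher and 6 to 19 lower, the fewest lower without CDK2-/- replicate 1, and in WT+NU6102 14 to 23 higher and 5 to 9 lower, the fewest higher without WT+NU6102 replicate 2.

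Among activators and cofactors of CDKs, 5 of 10 were called higher and 0 lower in WT+NU6102 (median 0.24; 3 and 1 with quantile normalization), 1 higher and 6 lower in CDK2-/-, and 0 and 5 in R50 (1 and 4 with quantile normalization). CDC25A, the phosphatase that also acts at the start of S phase, rose by 1.01 ± 0.06 (SE) in WT+NU6102 (limma adjusted p = 2.66e-04) and fell by 0.43 in R50 (0.00978; 0.0585 without WT replicate 1). R50 thus lay below WT+NU6102 for CDC25A, at -1.44 (limma adjusted p = 5.24e-05), where CDC25B and CDC25C lay above. CCNA2, which encodes cyclin A2, fell by 0.38 in R50 (limma adjusted p = 0.0149; 0.0730 and 0.0726 without WT replicate 1 and 2). CDK7, the catalytic subunit of the CDK-activating kinase, was 0.44 higher in R50 than in CDK2-/- (limma adjusted p = 0.00230).

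The Greatwall and PP2A-B55 list holds B55 subunits of the phosphatase that opposes CDK1. It also holds the Greatwall kinase and its substrates, which restrain that phosphatase. In this list 3 of 5 genes were higher and 0 lower in WT+NU6102 (1 and 0 with quantile normalization), and 0 higher and 2 lower in both CDK2-/- and R50. The rises were those of the B55 subunit genes PPP2R2A and PPP2R2D and of ARPP19, which encodes a Greatwall substrate. ENSA, a substrate of Greatwall, was 0.35 higher in R50 than in CDK2-/- (limma adjusted p = 0.00337). Of 8 checkpoint and restraint genes, 2 were higher and 2 lower in WT+NU6102 and in R50 (1 and 2, and 3 and 1, with quantile normalization), and 4 higher and 1 lower in CDK2-/- (4 and 0 with normexp correction). In WT+NU6102 these counts are near the shares of all genes called, 24.2% and 21.1%. SFN, which encodes 14-3-3 sigma, a protein that holds CDK1 complexes in the cytoplasm, rose by 0.98 ± 0.05 (SE) in WT+NU6102 (limma adjusted p = 1.78e-04) and by 0.65 in CDK2-/- (7.40e-04). In R50 it rose by 0.25 (limma adjusted p = 0.0244), lost without any 1 of the 8 arrays (from 0.0507 to 0.108) and with normexp correction (0.0504). CHEK2 fell by 0.46 in WT+NU6102 (limma adjusted p = 0.00147) and CHEK1 by 0.44 in R50 (0.00762), both checkpoint kinases. CDKN1A, the CDK inhibitor p21, was 0.32 higher in R50 (limma adjusted p = 0.0435), lost without any 1 array of WT, CDK2-/- or R50 (from 0.0781 to 0.161).

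Of 11 genes for transcription of G2/M genes, 5 were higher and 2 lower in WT+NU6102 (2 and 2 with quantile normalization), 4 and 1 in CDK2-/- and 1 and 1 in R50 (1 and 2 with normexp correction). MYBL2, a partner of the MuvB complex at CHR promoters, rose by 0.73 in WT+NU6102 (limma adjusted p = 0.00118), while NFYB, a subunit of the factor that binds CCAAT, fell by 0.72 there (0.00136). In CDK2-/- LIN9, a MuvB subunit, rose by 1.22 ± 0.08 (SE) (limma adjusted p = 3.84e-04) and NFYA by 1.18 (3.70e-04), while NFYC fell by 0.51 (0.00251). LIN9 and NFYA lay lower in R50 than in CDK2-/-, at -1.57 (limma adjusted p = 1.65e-04) and -0.83 (9.96e-04). Against WT, NFYA was 0.36 higher in R50 (limma adjusted p = 0.0257), lost without any 1 array of WT or R50 or without CDK2-/- replicate 2 (from 0.0523 to 0.118).

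Of 8 genes of the anaphase promoting complex and its regulators, 5 were higher and 1 lower in WT+NU6102 (3 and 2 with quantile normalization), 1 and 4 in CDK2-/- and 0 and 5 in R50 (0 and 3 with quantile normalization, 0 and 7 with normexp correction). UBE2S, an E2 enzyme of this complex, fell by 0.41 in CDK2-/- (limma adjusted p = 0.00227). The 17 other G2/M genes had 3 higher and 3 lower in WT+NU6102 (1 and 7 with quantile normalization), 0 and 10 in CDK2-/- and 0 and 5 in R50 (0 and 4 with quantile normalization, 0 and 9 with normexp correction). BIRC5, which encodes survivin, fell by 0.51 in CDK2-/- (limma adjusted p = 0.00221) and was 0.34 higher in R50 than in CDK2-/- (0.00772). CDCA3 fell by 0.49 in WT+NU6102 (limma adjusted p = 7.66e-04). BUB1, a spindle checkpoint kinase, was lower in R50 than in WT+NU6102, at -0.82 (limma adjusted p = 1.06e-04), as was MYBL2, at -0.89 (3.66e-04). NFYB, CHEK2 and the kinesin KIF20A were higher in that comparison, by 0.76 (limma adjusted p = 7.17e-04), 0.45 (0.00108) and 0.34 (0.00718). CDC25A was lower in R50 than in CDK2-/-, at -0.73 (limma adjusted p = 8.96e-04).

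**Figure D4:**
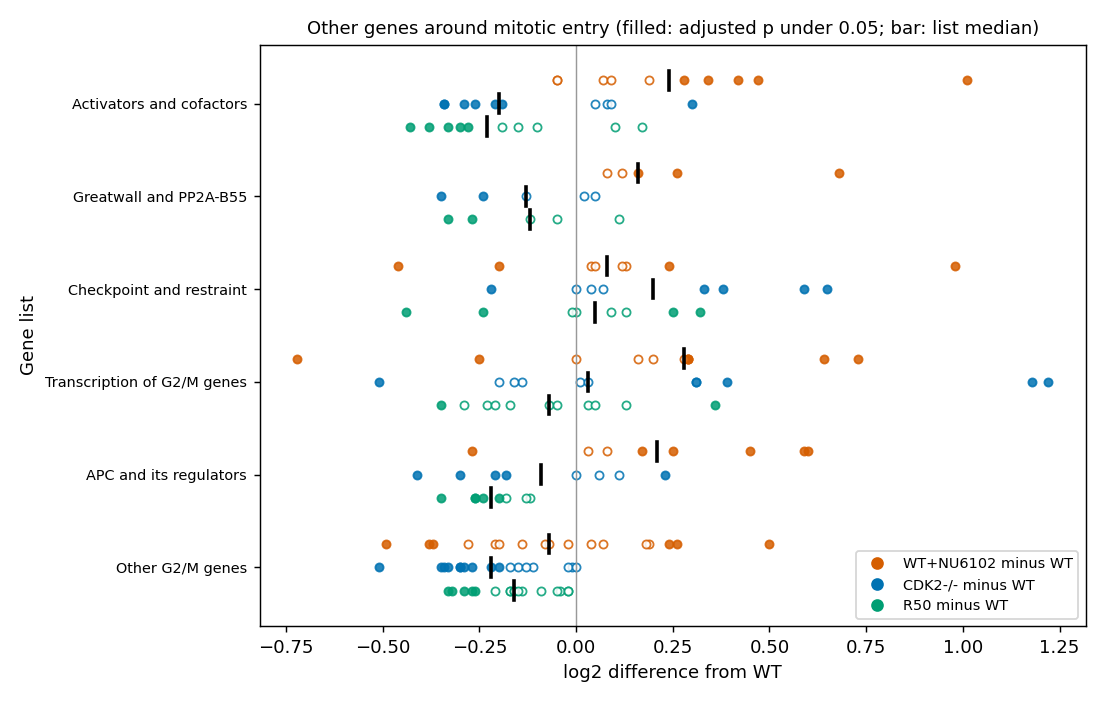
Log2 difference from WT (x axis) of 59 further genes in 6 lists, with 1 circle per gene and group, filled where the adjusted p was under 0.05, and a bar at each list's median. The median of the activators is 0.24 in WT+NU6102 and -0.20 and -0.23 in CDK2-/- and R50, and LIN9 and NFYA stand out at 1.22 and 1.18 in CDK2-/-.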

How the data were processed

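The authors hybridized Cy3-labelled RNA to Agilent SurePrint arrays and deposited a background-subtracted intensity for each spot, not normalized between arrays. The submitters' processing notes name Agilent Feature Extraction 11.5.1.1. A second table that the authors deposited holds log2 values for 28719 probes, and their methods name GeneSpring GX. These values followed the scanner signal (r of at least 0.9995 per array after centring each probe) and were centred on each probe's median over the arrays. Their column medians were 3.02e-04 and 0.00164 (WT), 0.0124 and 0.0235 (WT+NU6102), 0.00344 and 0.00479 (CDK2-/-), and -0.0212 and -0.0146 (R50). The filter that left these probes is not given in the sources used here.

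From the scanner files, log2 signal less each array's 75th percentile over non-control spots was computed, outlier spots were dropped, and spots of a probe were averaged (R 4.3.3). Of 50599 probes, 31 had no usable spot on an array. A probe was tested if some group had it well above background in duplicate, which held for 28677. None of the spots was saturated, 32376 to 36206 per array passed the scanner's background test, and precision is limited by how few arrays there are. Limma 3.58.1 fitted the 4 groups with empirical Bayes moderation, and all tests are two-sided. Differences of probe pairs were fitted likewise, for genes with at most 10 tested probes. The fits were also run on simulated data with independent noise, few changed probes and no slide effect. The real arrays differ in this, so that the simulation says nothing about effects of the slide. Figures were drawn with matplotlib 3.10.9.

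Named genes were all members, and from other lists the 3 largest called rises and falls per comparison. PPP2R2A, PPP2R2D and ARPP19 were named besides, to show which genes of their list rose. Members, lists and tests were chosen with earlier results of these data known, so that no p adjusted over a list alone is given. The alternatives were normexp correction with an offset of 50, quantile normalization, other filters, the authors' values, a trended prior, a replicate block, the arrays of a slide alone, other tests and leaving out each array. The other genes on the arrays were not analysed here for their own sake.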

Additional observations from a re-analysis of the deposited data

How the results depend on the processing

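No change of any of the 13 probes that was called in the main setting reversed its sign under the alternatives run. Of 611 values recomputed without leaving out an array, 543 stayed on their side of the threshold, 48 lost their call and 20 gained one. Counts of called genes of 10 are given in the order WT+NU6102, CDK2-/- and R50 against WT, then R50 against CDK2-/- and against WT+NU6102. They were 9, 4, 6, 5 and 8. With a replicate block they were 8, 4, 5, 5 and 8, and the F-test passed 2 of 13 probes in place of 5. The labels do not say whether replicate numbers pair the arrays, and deviations of arrays with the same number correlated between -0.028 and 0.045. Quantile normalization gave 7 in CDK2-/- and 3 in R50. Without a filter on dim probes, so with more probes to adjust over, there were 2, 2 and 1 for CDK2-/- against WT, R50 against WT and R50 against CDK2-/-, and the F-test passed 0 (limma; 11 of 13 probes at an unadjusted p under 0.05). A trended prior gave 7 in CDK2-/- and 10 probes past the F-test. The slide of CDK2-/- and R50 alone gave 3. The plain two-sample test gave 5, 0, 0 and 1 in the first 4 comparisons (9, 6, 6 and 6 at an unadjusted p under 0.05), and the methods' one-way ANOVA 3 probes. The cause of these moves was not tested. With an array left out, a lone array being assumed to vary like the others, the counts ranged from 5 to 9, 1 to 4, 2 to 3, 1 to 5 and 7 to 8, the F-test from 0 to 2 probes and the called CDK1 and CCNB1 pair differences from 2 to 4 of 6, against 2 in the main setting and with the replicate block. The number of genes past the F-test among all 21595 was 4761, and 7241 with normexp, 780 without a filter, 9175 with a trended prior, 1630 with the block and 1862 with the ANOVA. Among all genes, the plain test called 17 higher and 9 lower in R50 against WT, where limma called 2232 and 2784.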
